A study of Mus musculus with 36 samples.

Results

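The pro-B to pre-B transition was followed in RNA of wild-type bone marrow, with 1 pro-B and 1 pre-B library from each of 2 mice, mouse 10 and mouse 18. Genes entered with 10 or more normalized counts in at least 2 of these 4 libraries, which 16710 of the 46078 rows of the table did. Of these, 14449 reached 10 in all 4 libraries, 674 entered through the pro-B libraries alone and 308 through the pre-B libraries alone. The 150 genes just inside the limit had a second highest value of 10.3 to 10.5 and the 60 just outside one of 9.84.

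The mice were adult, on the 129Sv background and untreated. Among B220+ cells without surface IgM, pro-B cells were sorted as CD43+ and pre-B cells as CD43-, and no animals were pooled. The study compared such cells with cells lacking Sirt7, an NAD+-dependent deacetylase. The 4 libraries of its 2 Sirt7-/- mice, sorted with the same gates, entered the fit here to estimate the spread.

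In the bone marrow, pro-B cells rearrange the immunoglobulin heavy chain locus. A heavy chain that pairs with the surrogate light chain forms the pre-B cell receptor, which drives a burst of division in large pre-B cells and then silences its own surrogate light chain. The cells leave the cycle as small pre-B cells, rearrange their light chain genes and, once they carry IgM, become immature B cells.

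The wild-type libraries held 54130851 and 55497408 whole reads at the pro-B stage and 51609472 and 50004827 at the pre-B stage, so that counting error was small for all but the lowest genes. In each pair of values below, mouse 10 comes before mouse 18. The titles of the libraries give the stage, whereas another label names pro-B cells for every library of replicate 1 and pre-B cells for every library of replicate 2, and the titles were followed. *Vpreb1*, *Vpreb2*, *Igll1*, *Dntt* and *Kit* were high in both libraries titled pro-B and low in both titled pre-B, and *Il2ra*, *Cd2* and *Ms4a1* were the reverse, as described below. *Xist* followed the mouse and not the stage, with 20.6 and 228 normalized counts at the pro-B stage and 16.7 and 190.2 at the pre-B stage, while the Y-linked *Ddx3y* was at least 1579 in every library. The 2 libraries of a stage had a Pearson correlation over genes of 0.975 in pro-B and 0.973 in pre-B cells on the log2 scale and differed by more than sampling noise.

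Between the stages, 763 genes rose and 1620 fell at a limma adjusted p under 0.05 and a log2 fold change of 1.5 or more in size, which is 4.57% and 9.69% of the 16710 genes tested, or 14.3% in either direction. Every called gene moved the same way in both mice, which a call on the mean of the 2 mice favours. The median log2 fold change, on the scale of log2(normalized count + 1), was 2.18 among genes that rose and -2.34 among genes that fell, against -0.022 over all genes. The genes that rose made up 1.96% of normalized counts in pro-B and 7.35% in pre-B cells, and those that fell went from 7.48% to 1.76%. Among the 14449 genes that reached 10 in all 4 libraries, 580 rose and 1057 fell, and changes of 3 or more on the log2 scale made up 12.8% of those rises (74 genes) and 12.9% of those falls (136 genes). Values are relative to the library, and in sorted populations fewer cells of a kind and less RNA per cell cannot be told apart.

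**Figure D1:**
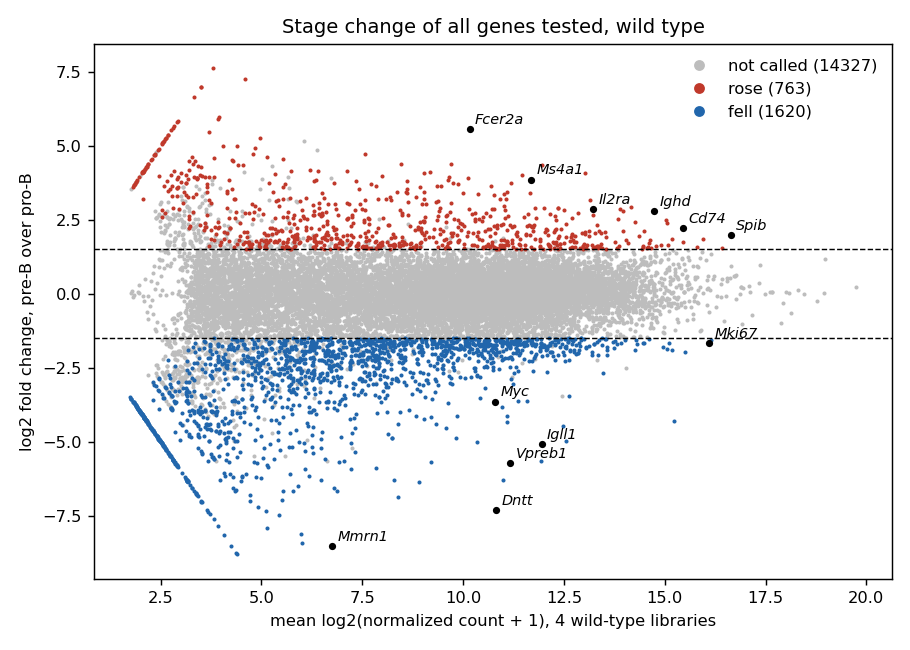
Log2 fold change of pre-B over pro-B cells (y axis) against the mean log2(normalized count + 1) over the 4 wild-type libraries (x axis) for the 16710 genes tested. The 763 genes that rose and the 1620 that fell are coloured, and dashed lines mark a log2 fold change of 1.5 in each direction.

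The surrogate light chain was nearly lost. Its parts are *Vpreb1* (chr16:16868403-16870843) and *Vpreb2* (chr16:17980428-17981273), which encode the variable-like chain, and *Igll1* (chr16:16860671-16863985), which encodes lambda5 and pairs with it, all in GRCm38 coordinates of GENCODE M21. *Vpreb1* had 15908 and 17771 normalized counts in pro-B and 288 and 348 in pre-B cells. Its pre-B level was 1.89% of its pro-B level (log2 fold change -5.73, SE 0.48, limma adjusted p = 0.00031). *Vpreb2* had 2815 and 2692 in pro-B and 33.5 and 35 in pre-B cells (log2 fold change -6.29, SE 0.53, limma adjusted p = 0.0003). *Igll1* had 23224 and 22752 in pro-B and 494 and 926 in pre-B cells (log2 fold change -5.09, SE 0.52, limma adjusted p = 0.00052). For each of these the groups were far apart, and the mice were alike except in the pre-B level of *Igll1*. *Vpreb1* and *Vpreb2* are near-identical copies, so that the split of reads between them is uncertain. *Vpreb3*, a related chain that binds nascent heavy and light chains, went the other way, from 37213 and 40626 to 58793 and 59416, below the fold threshold (log2 fold change 0.60, SE 0.08, limma adjusted p = 0.0013).

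The start of *Igll1* carried the highest Pax5 enrichment among the peaks of the genes named here, by the values of replicate 1. The ChIP-seq was of cultured Pax5-/- pro-B cells from fetal liver, given wild-type Pax5, a factor of B lineage commitment. That peak, chr16:16863854-16864429, was 33.4-fold over input with a -log10 q of 149 in replicate 1, and its summit there lay 140 bases before the start. The promoter is shown for that reason, from RefSeq in GRCm38.p6 (chr16:16863936-16864235, minus strand, 250 bases before to 50 after the start), with the 21 bases centred on the summit in capitals.
Igll1: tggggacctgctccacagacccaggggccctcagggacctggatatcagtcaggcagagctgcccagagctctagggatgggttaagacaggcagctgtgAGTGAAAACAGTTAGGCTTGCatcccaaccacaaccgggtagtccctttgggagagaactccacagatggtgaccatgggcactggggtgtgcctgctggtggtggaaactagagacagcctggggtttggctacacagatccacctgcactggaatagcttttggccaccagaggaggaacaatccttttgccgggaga

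Several other genes of the pro-B stage fell with them. The pro-B stage list of 14 genes also held *Vpreb1*, *Vpreb2* and *Igll1* from above, and *Spn* of the gate. Of the 14, 9 fell and 0 rose (64.3% and 0%, against 9.69% and 4.57% of all genes tested). Those named genes were all among the 9, so the count is not one of other genes alone. The remaining falls were *Kit*, *Flt3*, *Dntt*, *Erg* and *Lef1*. Over the 14 genes, the median was -3.25 on the log2 scale. *Dntt*, the terminal transferase that adds untemplated bases at heavy chain joints, had 19432 and 26828 normalized counts in pro-B and 131 and 157 in pre-B cells (log2 fold change -7.30, SE 0.87, limma adjusted p = 0.00092). *Erg*, an ETS factor of early progenitors, went from 6972 and 7808 to 347 and 149 (log2 fold change -5.01, SE 0.50, limma adjusted p = 0.00049). *Kit*, the receptor of stem cell factor, went from 1529 and 1727 to 37.6 and 78.7 (log2 fold change -4.87, SE 1.07, limma adjusted p = 0.011). Its groups lay far apart in the wild type, but the limma adjusted p was 0.054 without the pro-B library of mouse 18 and 0.062 without the pre-B library of mouse 10. *Spn*, which encodes the CD43 used to sort the cells, went from 16909 and 19511 to 5442 and 6278 (log2 fold change -1.64), and this change is part of the gate and no finding. The list also held genes that did not fall. *Il7r*, the receptor chain for the cytokine that sustains early B cells, had 19404 and 22206 in pro-B and 16274 and 23977 in pre-B cells, so that the groups overlapped, and *Cd93* was higher in pre-B cells (log2 fold change 0.56).

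Genes of the pre-B stage were mostly higher. Of 16, 8 rose (50%, against 4.57% of all genes tested) and 0 fell, 15 were higher at an adjusted p under 0.05 at any fold, which 19.3% of all genes tested were, and the median log2 fold change was 1.33. *Il2ra* (chr2), which encodes CD25, the usual surface mark of small pre-B cells, had 3760 and 3339 normalized counts in pro-B and 25620 and 26038 in pre-B cells (log2 fold change 2.87, SE 0.09, limma adjusted p = 9.2e-05). *Cd2*, an adhesion receptor, went from 1164 and 521 to 6595 and 4754 (log2 fold change 2.84, SE 0.45, limma adjusted p = 0.0027). *Ms4a1*, which encodes CD20, went from 634 and 1193 to 13516 and 11834 (log2 fold change 3.86, SE 0.30, limma adjusted p = 0.00025). Each of these separated the stages in both mice with no overlap.

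**Figure D2:**
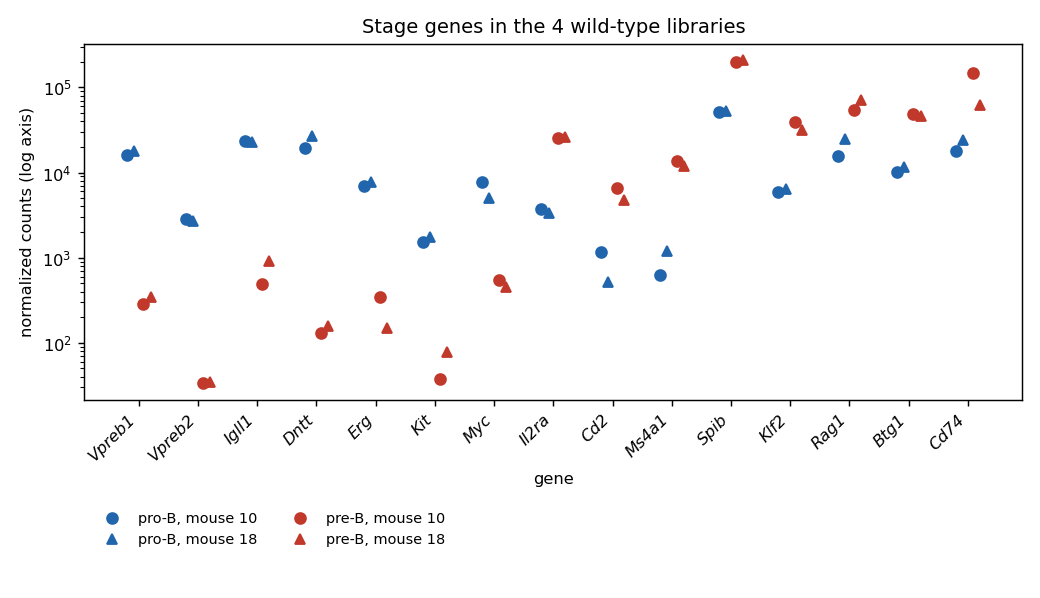
Normalized counts (log axis) of stage genes in the 4 wild-type libraries, with pro-B and pre-B libraries in different colours and the 2 mice by marker shape. *Vpreb1*, *Vpreb2*, *Igll1*, *Dntt*, *Erg*, *Kit* and *Myc* lie high in pro-B cells, and *Il2ra*, *Cd2*, *Ms4a1*, *Spib*, *Klf2*, *Rag1*, *Btg1* and *Cd74* lie high in pre-B cells, with both mice on the same side.

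In the V(D)J recombination machinery few genes were called. *Rag1*, the catalytic recombinase chain, had 15744 and 24546 normalized counts in pro-B and 53920 and 71115 in pre-B cells (log2 fold change 1.66, SE 0.28, limma adjusted p = 0.0035). Its partner *Rag2* had 7524 and 11256 in pro-B and 8565 and 11984 in pre-B cells, with overlapping groups (log2 fold change 0.14, limma adjusted p = 0.67). Both genes were higher in mouse 18 at both stages. Without the pro-B library of mouse 10 or the pre-B library of mouse 18, *Rag1* stayed higher but below the fold threshold, at 1.33 and 1.46. Of the 14 genes of the list, only *Rag1* rose and only *Dntt* fell (7.14% each, near the 4.57% and 9.69% of all genes tested), and without either of those libraries 0 rose. At any fold 4 were higher and 4 lower (28.6% each, against 19.3% and 23.1% of all genes tested). *Dclre1c*, which encodes the hairpin-opening nuclease Artemis, was higher in pre-B cells (log2 fold change 1.13), and *Hmgb1* and *Hmgb2*, DNA-bending cofactors of the recombinase, were lower (-1.08 and -1.28), all below the fold threshold.

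Among 22 transcription factors of the B lineage, 3 rose and 2 fell (13.6% and 9.09%, against 4.57% and 9.69% of all genes tested), and 14 were higher at an adjusted p under 0.05 at any fold (63.6%, against 19.3%). *Spib*, an ETS factor related to PU.1, had 50682 and 52162 normalized counts in pro-B and 196367 and 208514 in pre-B cells (log2 fold change 1.98, SE 0.08, limma adjusted p = 9.2e-05). *Ikzf3*, which encodes Aiolos, went from 16159 and 13868 to 43033 and 45594 (log2 fold change 1.57, SE 0.09, limma adjusted p = 0.00012), or 1.46 without the pro-B library of mouse 18. *Klf2*, a factor of quiescence and trafficking in lymphocytes, went from 5871 and 6439 to 38790 and 31908 (log2 fold change 2.52, SE 0.43, limma adjusted p = 0.0038). *Lef1*, a nuclear partner of beta-catenin, went from 22230 and 27963 to 5691 and 6339 (log2 fold change -2.05). The core factors moved little. *Pax5* itself had 92893 and 83828 in pro-B and 146580 and 125289 in pre-B cells (log2 fold change 0.62, SE 0.11, limma adjusted p = 0.0042) that stayed below the fold threshold. Below it as well were *Irf4* (0.72) and *Bach2* (0.83), whose pre-B values were above the pro-B values in both mice, while *Mef2c* had 3004 and 3231 in pro-B and 3143 and 2911 in pre-B cells. *Runx2* had 330 and 650 in pro-B and 65.9 and 62.3 in pre-B cells (log2 fold change -2.83, SE 0.84, limma adjusted p = 0.033). Leaving out any 1 of the 4 wild-type libraries ended that call, with a limma adjusted p of 0.065 to 0.155.

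Receptor signalling genes rose in part. Of 18 genes of the pre-B cell and B cell receptor pathways, 5 rose and 0 fell, and at an adjusted p under 0.05 at any fold 13 were higher and 1 lower. These are 27.8% and 0% called, against 4.57% and 9.69% of all genes tested, and 72.2% and 5.56% at any fold, against 19.3% and 23.1%, with a median log2 fold change of 0.86. *Cd79b*, a signalling chain of the receptor, had 24020 and 25445 normalized counts in pro-B and 86916 and 78846 in pre-B cells (log2 fold change 1.74, SE 0.10, limma adjusted p = 0.00012). The kinases *Syk* (log2 fold change 1.55, limma adjusted p = 9.2e-05) and *Lyn* (1.55, limma adjusted p = 0.00014), which act directly below it, rose by about as much, *Lyn* by 1.44 without the pro-B library of mouse 10 and by 1.47 without the pre-B library of mouse 18. *Cd72*, an inhibitory coreceptor, rose by 1.63, and *Bank1*, a B cell adaptor, went from 278 and 350 to 4272 and 2633 (log2 fold change 3.42, SE 0.29, limma adjusted p = 0.00031). The adaptor *Blnk* (0.24) and the lipase *Plcg2* (-0.04) were close to their pro-B levels, and the kinase *Fyn* was lower, with 5152 and 5628 in pro-B and 3783 and 3629 in pre-B cells (log2 fold change -0.54, SE 0.09, limma adjusted p = 0.0041).

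In the IL-7 receptor pathway, 2 of 12 genes rose and 0 fell (16.7% and 0%, against 4.57% and 9.69% of all genes tested), and at any fold 5 were higher and 3 lower (41.7% and 25%, against 19.3% and 23.1%). *Socs1*, a feedback inhibitor of JAK kinases, went from 447 and 528 normalized counts to 3180 and 3270 (log2 fold change 2.73, SE 0.22, limma adjusted p = 0.00028). *Pim2*, a survival kinase, went from 2808 and 2902 to 19893 and 17707 (log2 fold change 2.72, SE 0.11, limma adjusted p = 9.2e-05). Other STAT5 targets did not share a direction. *Pim1*, a kinase related to *Pim2*, was higher below the fold threshold (0.88, limma adjusted p = 0.0022), and *Socs3* had overlapping groups. *Socs2* had a log2 fold change of -1.44 and *Cish* one of -0.90, with adjusted p-values of 0.0017 and 0.019 in limma, and without the pro-B library of mouse 18 *Socs2* passed the fold threshold at -1.64.

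Replication genes were lower throughout. All 36 genes of the DNA replication list had a lower level in both pre-B libraries than in both pro-B libraries, which held for 38.5% of all genes tested, and 35 were lower at an adjusted p under 0.05 at any fold, against 23.1% of all genes tested. Of these, 17 were past the fold threshold (47.2%, against 9.69% of all genes tested), and the median log2 fold change was -1.48. *Mcm6*, a subunit of the replicative helicase, had 18333 and 20095 normalized counts in pro-B and 4338 and 4851 in pre-B cells (log2 fold change -2.06, SE 0.16, limma adjusted p = 0.00026). *Tyms*, thymidylate synthase, went from 3719 and 3966 to 611 and 977 (log2 fold change -2.31, SE 0.27, limma adjusted p = 0.00087), and *Lig1*, which joins Okazaki fragments, went from 14466 and 14981 to 3445 and 3891 (log2 fold change -2.01). The smallest changes were those of *Gins4* (-0.49) and *Rfc2* (-0.60).

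Mitosis genes were lower throughout as well. All 32 were lower at an adjusted p under 0.05, and 26 passed the fold threshold (81.2%), against 23.1% and 9.69% of all genes tested, with a median log2 fold change of -1.68. *Ccnb1*, cyclin B1, had 6874 and 7772 normalized counts in pro-B and 1291 and 1775 in pre-B cells (log2 fold change -2.27, SE 0.21, limma adjusted p = 0.00042). *Ube2c*, which works with the anaphase-promoting complex, went from 20417 and 22319 to 4252 and 6140 (log2 fold change -2.06), and *Plk1*, a mitotic kinase, from 18181 and 18909 to 4194 and 5402 (-1.96). *Mki67*, which encodes the proliferation antigen Ki-67, went from 122094 and 128260 to 31857 and 48299 (log2 fold change -1.67, SE 0.25, limma adjusted p = 0.0023). In each of these genes pre-B cells of mouse 18 kept more than those of mouse 10. Without the pre-B library of mouse 10, 13 of the 32 passed the fold threshold, while all 32 were still lower at an adjusted p under 0.05, *Mki67* with a log2 fold change of -1.37.

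The promoters of these lists are shown because their genes moved together. Known regulators of such genes are E2F factors, the CHR element bound by the DREAM and B-Myb complexes, and NF-Y, which binds the CCAAT box. Searched on both strands, the CHR letters TTTGAA stood in 20 of 29 promoters of mitosis genes (69.0%) and in 17.9% of all 32851 mouse promoters of the same 300 bases. CCAAT stood in 24 of those 29 (82.8%) and in 37.4% of all, and 20 of the 29 held both, which 6.95% of all promoters did. In 34 promoters of replication genes, CHR stood in 4 and CCAAT in 22, and 13 held an E2F site of the form GCGCGAAA or GGCGGGAA, which 2.5% of all promoters did. Among the 13194 promoters of all genes tested, CHR stood in 12.2%, CCAAT in 37.6%, GCGCGAAA in 0.606% and GGCGGGAA in 3.82%. RefSeq gave a promoter for 27 of the 32 mitosis genes and 29 of the 36 replication genes, some with more than 1 start, and sites of different motifs overlapped in 0.213% of all promoters. The called gene with the highest mean level in each list is printed from GRCm38.p6, with all such letters in capitals. *Mki67* (chr7:135716330-135716629, minus strand) had 2 CHR and 3 CCAAT sites, and *Uhrf1* (chr17:56303087-56303386, plus strand, the more upstream of its 2 promoters in the table), a partner of the maintenance DNA methyltransferase, had 1 E2F site and 3 CCAAT sites, of which 2 overlap.
Mki67: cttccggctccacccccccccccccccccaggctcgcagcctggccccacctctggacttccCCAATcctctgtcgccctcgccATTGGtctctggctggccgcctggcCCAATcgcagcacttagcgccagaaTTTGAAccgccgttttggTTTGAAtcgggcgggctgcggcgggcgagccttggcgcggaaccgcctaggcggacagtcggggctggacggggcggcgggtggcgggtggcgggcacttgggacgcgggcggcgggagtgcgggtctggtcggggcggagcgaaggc
Uhrf1: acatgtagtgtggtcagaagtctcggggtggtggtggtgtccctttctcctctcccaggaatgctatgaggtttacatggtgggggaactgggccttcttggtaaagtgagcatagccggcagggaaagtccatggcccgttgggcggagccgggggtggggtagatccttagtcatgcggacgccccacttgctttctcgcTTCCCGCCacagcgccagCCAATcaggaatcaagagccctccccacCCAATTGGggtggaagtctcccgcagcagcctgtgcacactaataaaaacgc
A match of letters is a description and no evidence of binding.

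**Figure D3:**
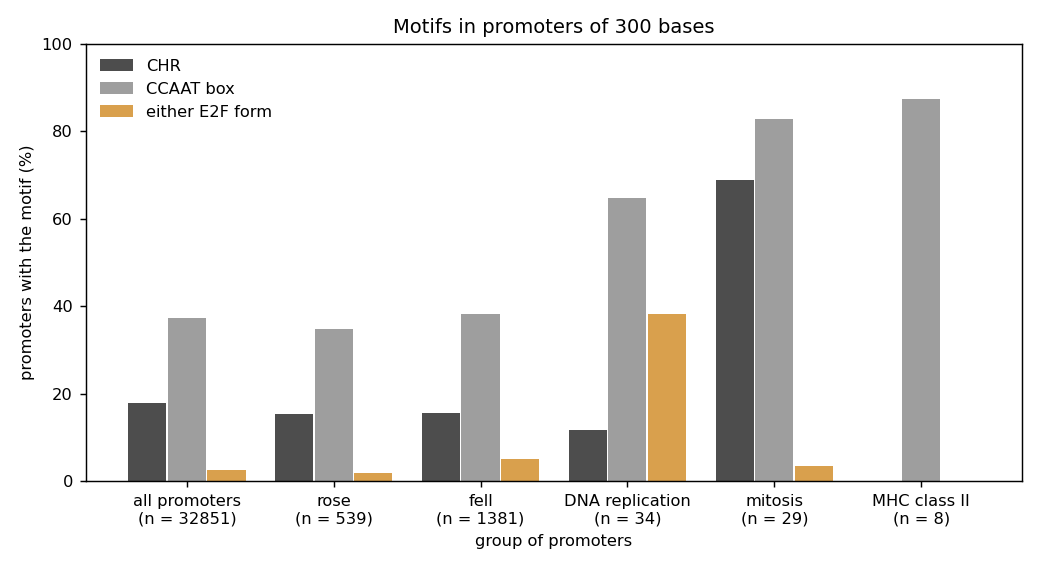
Share of promoters (percent, y axis, from 0) that hold the CHR letters, the CCAAT letters or either E2F form, for all 32851 promoters, for promoters of genes that rose or fell and for those of the replication, mitosis and MHC class II lists. Mitosis promoters reach 69.0% for CHR against 17.9% of all promoters.

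Regulators of the G1 phase changed in both directions. Of 21 genes, 8 fell and 2 rose (38.1% and 9.52%, against 9.69% and 4.57% of all genes tested), and 5 fell without the pre-B library of mouse 10. *Ccnd2*, cyclin D2, went from 11254 and 10181 normalized counts to 1739 and 1709 (log2 fold change -2.63, SE 0.18, limma adjusted p = 0.00019), and its partner kinase *Cdk6* from 28637 and 29105 to 4121 and 4890 (log2 fold change -2.68, SE 0.25, limma adjusted p = 0.00042). *Myc*, the growth regulator, went from 7753 and 5040 to 552 and 449 (log2 fold change -3.65, SE 0.35, limma adjusted p = 0.00043). The genes that rose were the antiproliferative pair *Btg1*, from 10183 and 11584 to 49152 and 46512 (log2 fold change 2.14), and *Btg2*, from 6738 and 8700 to 30986 and 35736 (2.12). The inhibitors of cyclin-dependent kinases did not share a direction. *Cdkn1a*, which encodes p21, fell (-2.15, limma adjusted p = 0.00097), whereas *Cdkn1b*, which encodes p27, was higher below the fold threshold (1.43, limma adjusted p = 0.00046) and above it, at 1.65, without the pre-B library of mouse 18.

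Growth and energy genes were lower as well, by less. In ribosome biogenesis 16 of 20 genes were lower at an adjusted p under 0.05 at any fold (80%, against 23.1% of all genes tested), but only 1 passed the fold threshold (5%, against 9.69%), *Fbl*, the methyltransferase fibrillarin (log2 fold change -1.53, limma adjusted p = 0.00018), and the median was -0.92. *Fbl* stood at -1.49 without the pre-B library of mouse 18, and 3 and 2 genes passed without the pro-B library of mouse 10 and of mouse 18. Of 18 genes of glucose and amino acid use, 4 fell (22.2%, against 9.69% of all genes tested) and 0 rose. *Slc7a5*, a transporter of large neutral amino acids, went from 6647 and 6380 normalized counts to 1193 and 954 (log2 fold change -2.61, SE 0.21, limma adjusted p = 0.00026), and *Ldha*, lactate dehydrogenase A, from 14631 and 14108 to 3505 and 3544 (log2 fold change -2.03). *Gapdh* (-1.90) and *Tpi1* (-1.55, or -1.43 and -1.48 without either library of mouse 10), enzymes of glycolysis, fell too, while the glucose transporter *Slc2a1* was higher below the fold threshold (0.53). Of 3 genes known to restrain energy supply in B cells, *Cnr2*, a cannabinoid receptor, rose from 117 and 132 to 2410 and 1913 (log2 fold change 4.10, SE 0.19, limma adjusted p = 9.8e-05), *Txnip*, an inhibitor of glucose uptake, was higher below the fold threshold (1.34, or 1.52 and 1.66 without the pro-B library of mouse 10 and the pre-B library of mouse 18), and *Nr3c1*, the glucocorticoid receptor, had overlapping groups.

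**Figure D4:**
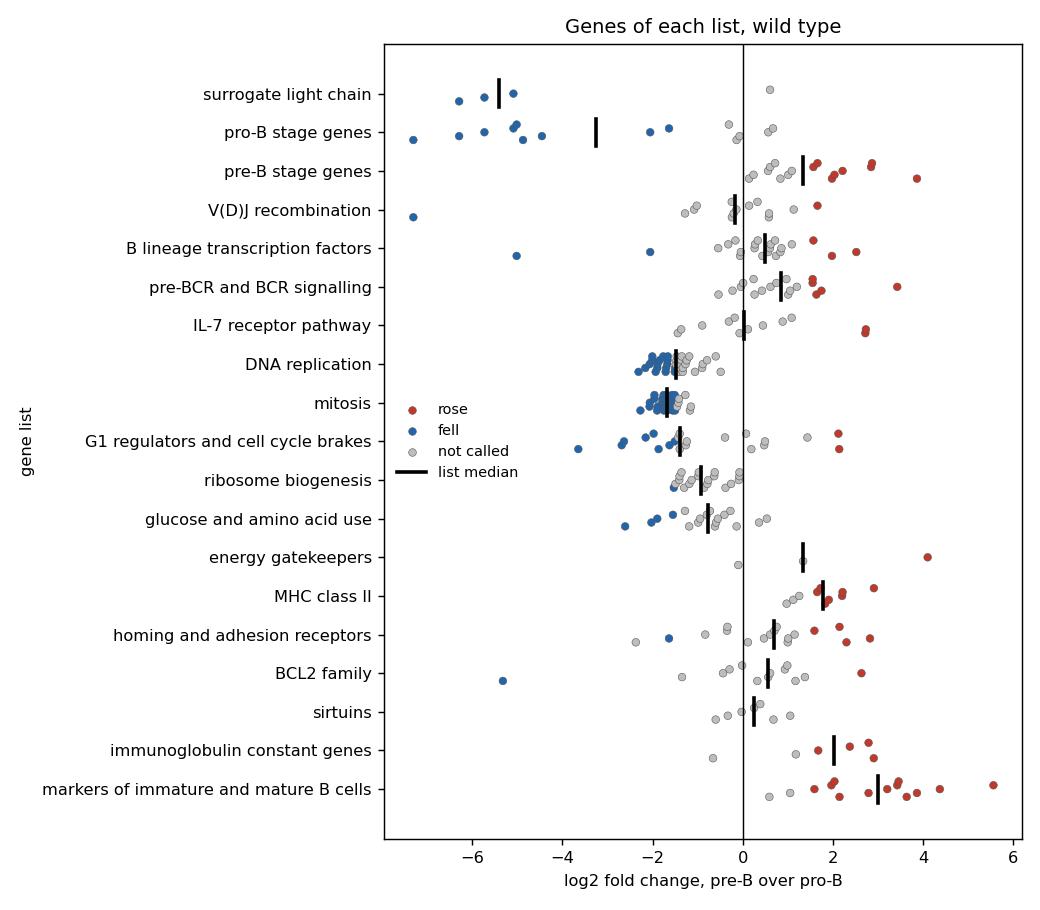
Log2 fold change of pre-B over pro-B cells (x axis) of every gene tested in 19 lists, 1 point per gene, coloured by whether it rose, fell or was not called, with a black bar at the list median. Mitosis and replication genes lie wholly below 0 and MHC class II genes and markers of immature and mature B cells wholly above it.

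Antigen presentation genes were higher. Of 10 MHC class II genes 7 rose (70%, against 4.57% of all genes tested) and 0 fell, all 10 were higher in both pre-B libraries than in both pro-B libraries, which held for 35.6% of all genes tested, and the median log2 fold change was 1.78. *H2-DMb2*, a chain of the peptide-loading factor, went from 1274 and 1286 normalized counts to 11994 and 7687 (log2 fold change 2.91, SE 0.29, limma adjusted p = 0.00053). *Cd74*, the invariant chain, went from 17840 and 24193 to 148970 and 62189 (log2 fold change 2.21, SE 0.43, limma adjusted p = 0.0067). Its pre-B level differed by more between the mice than that of the other members, and both pre-B values were above both pro-B values. *Ciita*, the master coactivator of these genes, was higher below the fold threshold (0.97). Their promoters are known for a CCAAT box, and 7 of 8 on the list held the letters against 37.4% of all promoters. The promoter of the alpha chain *H2-Aa* (chr17:34287774-34288073, minus strand, GRCm38.p6), whose gene rose by 1.72, had 1 such site, in capitals and on the opposite strand.
H2-Aa: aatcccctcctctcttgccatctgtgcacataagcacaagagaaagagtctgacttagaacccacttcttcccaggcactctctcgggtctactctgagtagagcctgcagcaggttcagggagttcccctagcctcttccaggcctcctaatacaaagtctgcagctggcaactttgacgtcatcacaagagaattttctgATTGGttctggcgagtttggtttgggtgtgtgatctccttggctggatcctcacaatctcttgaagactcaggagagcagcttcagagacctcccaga

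Genes of later B cell stages were already higher. Of 14 markers of immature and mature B cells 12 rose (85.7%, against 4.57% of all genes tested) and 0 fell, and the median log2 fold change was 3.0. *Fcer2a*, which encodes CD23, had 179 and 154 normalized counts in pro-B and 9419 and 6540 in pre-B cells (log2 fold change 5.56, SE 0.32, limma adjusted p = 0.00012). *Fcmr*, the Fc receptor for IgM, went from 780 and 985 to 21109 and 15544 (log2 fold change 4.37, SE 0.26, limma adjusted p = 0.00013). Summed over the 14 genes, the level went from 33011 and 35189 to 196270 and 150110, with *Ighd* as its most abundant gene and no member at 0 in any library. The gate took IgM- cells, and how far cells of later stages entered the pre-B libraries was not tested.

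Of 6 immunoglobulin constant genes, 4 rose (66.7%, against 4.57% of all genes tested) and 0 fell. *Ighm*, the mu heavy chain, went from 320834 and 370545 normalized counts to 772917 and 784834, below the fold threshold (log2 fold change 1.18, SE 0.11, limma adjusted p = 0.00044). *Ighd*, the delta chain, rose from 10907 and 9999 to 82047 and 63406 (log2 fold change 2.79, SE 0.20, limma adjusted p = 0.00021). The lambda chains *Iglc2* (2.37) and *Iglc3* (2.90), close copies between which reads may be split, rose as well. *Iglc1* rose by 1.67 (limma adjusted p = 0.032), but with the replicate block its limma adjusted p was 0.066, and without the pro-B or the pre-B library of mouse 10, or either Sirt7-/- pro-B library, it was 0.121, 0.164, 0.0507 and 0.0508. *Igkc*, the kappa chain, had 234972 and 550267 in pro-B and 215431 and 240298 in pre-B cells (log2 fold change -0.66, SE 0.34, limma adjusted p = 0.167). Among the wild-type libraries the pro-B library of mouse 18 was the highest, and it was also high in kappa variable gene transcripts, 0.194% of normalized counts against 0.0649% to 0.0713% in the other 3. Both Sirt7-/- pro-B libraries were high as well, with 439264 and 387073 for *Igkc* and 0.157% and 0.163% for kappa variable genes. Without the pro-B library of mouse 18 the log2 fold change of *Igkc* was -0.05.

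A few transcripts known from plasma cells fell as well, and among the wild-type libraries they were highest in the same one. *Jchain*, which encodes the chain that joins IgM and IgA multimers, had 20006 and 57036 normalized counts in pro-B and 881 and 1307 in pre-B cells (log2 fold change -4.97, SE 0.44, limma adjusted p = 0.00035). *Ighg2c*, a switched heavy chain, had 9745 and 32473 in pro-B and 109 and 479 in pre-B cells (log2 fold change -6.28, SE 0.76, limma adjusted p = 0.00097). Both pro-B libraries were above both pre-B libraries in these genes, and the Sirt7-/- pro-B libraries had 37239 and 35601 for *Jchain* and 53850 and 35806 for *Ighg2c*. The whole list of 7 plasma cell markers summed to 33969 and 75238 in pro-B and 16400 and 16733 in pre-B cells, with *Jchain* the most abundant and 2 of 7 genes falling (28.6%, against 9.69% of all genes tested), *Jchain* and *Tnfrsf17*, which encodes the receptor BCMA, or 1 without the pro-B library of mouse 18. *Tnfrsf17* had 34.6 and 104 in pro-B and 0 and 5.47 in pre-B cells, so that it was tested through its pro-B values alone. *Sdc1*, which encodes CD138, was higher in pre-B cells (log2 fold change 0.72), and *Prdm1*, *Xbp1* and *Derl3* had overlapping groups. How far plasma cells add to the pro-B values was not tested.

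Homing and adhesion receptors rose in part. Of 17, 4 rose and 1, the gate marker *Spn*, fell (23.5% and 5.88%, against 4.57% and 9.69% of all genes tested). *S1pr1*, the receptor for exit into the blood, went from 952 and 1304 normalized counts to 6480 and 4642 (log2 fold change 2.30, SE 0.25, limma adjusted p = 0.00071). *Cxcr5*, the follicle-homing receptor, rose by 2.14, *Ccr6* by 2.82 and *Ccr7* by 1.59, or 1.49 without the pro-B library of mouse 10. *Cxcr4*, which holds cells in the marrow, was higher below the fold threshold (1.01), and *Itgb1*, an integrin chain of adhesion to stroma, was lower (-0.83).

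The BCL2 family had 1 gene that rose and 1 that fell among 13 (7.69% each), near the 4.57% and 9.69% of all genes tested. *Bmf*, a proapoptotic BH3-only gene, went from 1425 and 2809 normalized counts to 9809 and 15667 (log2 fold change 2.63, SE 0.35, limma adjusted p = 0.0013), and mouse 18 was higher at both stages. *Bok*, a BAX relative, went from 407 and 449 to 5.23 and 17.5 (log2 fold change -5.32, SE 0.71, limma adjusted p = 0.0014). Without the pre-B library of mouse 10, 2 genes fell. The antiapoptotic *Bcl2l1* (1.38), *Mcl1* (1.17) and *Bcl2* (0.61, limma adjusted p = 0.041) were higher below the fold threshold.

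Of the 7 sirtuins 0 were called by limma, edgeR or DESeq2, while limma called 14.3% of all genes tested in either direction. In limma 4 had an unadjusted p under 0.05, as did 8506 of all 16710 genes tested. *Sirt7* itself, the gene deleted elsewhere in the study, had 2692 and 2533 normalized counts in pro-B and 5613 and 5219 in pre-B cells (log2 fold change 1.05, SE 0.14, limma adjusted p = 0.0015). The mice were close and the stages did not overlap. *Sirt2* was higher by 0.68 and *Sirt3* lower, with a log2 fold change of -0.60 (limma adjusted p = 0.0032 and 0.038). *Sirt6* was higher by 0.39 (limma adjusted p = 0.0497), and *Sirt1*, *Sirt4* and *Sirt5* did not pass at any fold.

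Some markers of other lineages fell too. Of 15 T cell markers, 11 fell and 0 rose, or 7 and 0 without the pro-B library of mouse 18, and the median log2 fold change was -4.53, or -2.94 with values under 3 counts in a library put at 3. Since 9 of the 15 were tested only because of their pro-B values and could only be lower, nothing is read from this count beside the 9.69% of all genes tested. Among the 5 that reached 10 normalized counts in all 4 libraries, 3 fell, against 7.3% of all genes that reached it. *Thy1* had 886 and 1007 normalized counts in pro-B and 22.0 and 14.2 in pre-B cells (log2 fold change -5.66, SE 0.81, limma adjusted p = 0.0018), and the adaptor *Lat* and the kinase *Zap70* fell by 4.12 and 3.20 on the log2 scale. The T cell receptor genes proper were low. *Trbc2* had 27.1 and 51.3 in pro-B cells and 0 in both pre-B libraries, at least 13.1-fold lower against a floor of 3 counts over the group, and *Cd3e* had 18.7 and 44.8 and again 0, at least 10.6-fold lower. Summed, the 15 markers went from 8932 and 9352 to 3414 and 3311, with *Lck* the most abundant.

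Myeloid markers were mostly lower, with 4 of 14 falling by limma and by edgeR (28.6%, against 9.69% of all genes tested) and 7 by DESeq2. The limma count was 2 when any 1 of the 4 wild-type libraries was left out and 8 without either Sirt7-/- pro-B library. Of the 14, 3 had a log2 fold change above 0, with values up to 0.92. At an adjusted p under 0.05 at any fold 1 was higher (7.14%, against 19.3% of all genes tested). *Lyz2*, lysozyme, went from 6762 and 6030 normalized counts to 898 and 824 (log2 fold change -2.89, SE 0.41, limma adjusted p = 0.0017). *Ngp*, the most abundant of the list and a neutrophil granule gene, had 50588 and 31974 in pro-B and 8841 and 5699 in pre-B cells, and did not pass (limma adjusted p = 0.077, or 0.0032 with the replicate block), while the myeloid sum went from 99059 and 66288 to 26891 and 23049. Of 10 erythroid markers 2 fell (20%, against 9.69% of all genes tested), or 2 by edgeR and 5 by DESeq2. Of 9 NK cell markers 2 fell (22.2%), or 1 by edgeR and 6 by DESeq2. Of 7 markers of multipotent progenitors 5 fell by each tool (71.4%), among them *Flt3* and *Hoxa9*, which encodes a homeobox factor of progenitors (log2 fold change -2.77). Since 4 of these NK and 2 of these progenitor markers were tested only because of their pro-B values, they could only be lower. Nothing is read from either count beside the 9.69% of all genes tested. With any 1 of the wild-type libraries left out 0 NK markers fell, and without either Sirt7-/- pre-B library 6 NK and 4 erythroid markers did, while 3 progenitor markers fell without either pro-B library or the pre-B library of mouse 10. Of those that reached 10 normalized counts in all 4 libraries, 0 of 4 NK, 1 of 9 erythroid and 2 of 3 progenitor markers fell, against 7.3% of all genes that reached it. The NK markers summed to 1017 and 1096 and then to 441 and 289.7, the erythroid ones to 19386 and 14542 and then to 6645 and 8931, and the progenitor ones to 3511 and 3915 and then to 580.3 and 741. Of 5 markers of plasmacytoid dendritic cells 1 rose (20%, against 4.57% of all genes tested), *Cox6a2*, a subunit of the respiratory chain, or 2 without the pre-B library of mouse 18. *Siglech*, a surface lectin of these cells, went from 108 and 97.0 to 0 and 3.28, and did not pass (limma adjusted p = 0.124, or 0.038 with the replicate block). It was tested only because of its pro-B values and could only be lower, so nothing is read from its direction. Of 5 markers of stroma 0 changed by limma, edgeR or DESeq2, or at an unadjusted p under 0.05 in limma. Of all 16710 genes tested, limma called 14.3% in either direction, and 8506 had an unadjusted p under 0.05. Whether such transcripts came from B cell progenitors or from other cells in the sort was not tested.

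Outside these lists, the genes with the largest changes among those averaging at least 1000 normalized counts in the higher group included several surface proteins. Among the 10 largest rises, next to *Fcer2a*, *Fcmr*, *Ms4a1* and *Cnr2*, stood *Il4i1*, an amino acid oxidase, from 194 and 169 to 4422 and 3312 (log2 fold change 4.39, SE 0.41, limma adjusted p = 0.0004), *Icosl*, the ligand of the costimulator ICOS (4.13), and *Pde4c*, a cyclic AMP phosphodiesterase (4.02). The 3 others were the little described *BE692007* (3.85), *RP23-64J23.3* (3.99) and *RP23-272P19.7* (3.90). Among the 10 largest falls, next to *Dntt*, *Vpreb2* and *Ighg2c*, stood *Mmrn1*, multimerin, with 1821 and 2321 in pro-B and 3.14 and 6.56 in pre-B cells (log2 fold change -8.52, SE 1.45, limma adjusted p = 0.0037). With both pre-B values under 10, *Mmrn1* was tested through its pro-B values alone and could only be lower. The size of its fall rests on those few pre-B counts. *Arpp21*, a phosphoprotein regulated by cyclic AMP, went from 3448 and 3801 to 26.1 and 35 (log2 fold change -6.86), and *Atp2b4*, a calcium pump of the plasma membrane, from 4331 and 4327 to 43.9 and 60.1 (-6.37). *Nynrin* (-8.42, with 0 and 10.9 normalized counts in pre-B cells, and -6.63 to -10.2 with 1 library left out), *Fxyd6* (-6.66), the mucin *Muc13* (-6.58) and *Mylk*, myosin light chain kinase (-5.93), completed them. *Grb7*, an adaptor of receptor tyrosine kinases, fell by 4.16 on the log2 scale.

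**Figure D5:**
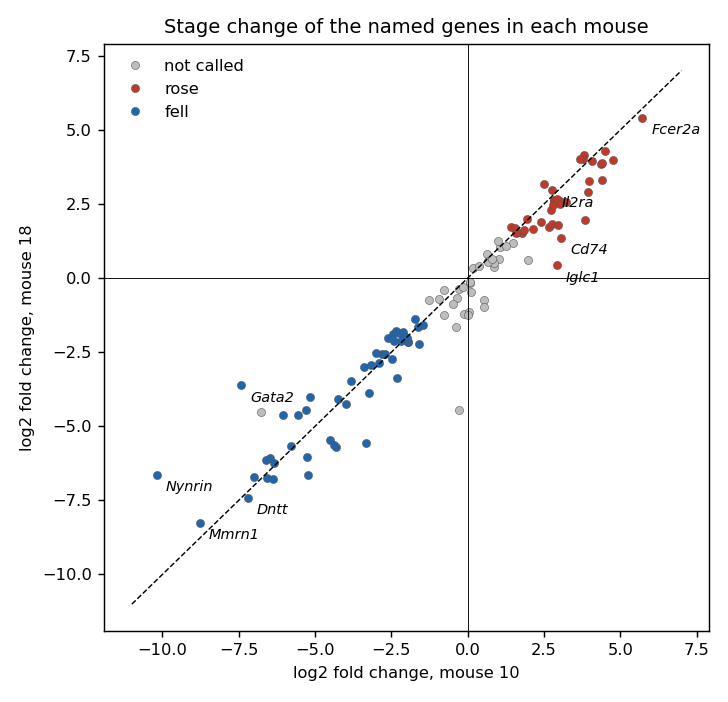
Log2 fold change of pre-B over pro-B cells in mouse 10 (x axis) and in mouse 18 (y axis) for the named genes, with genes that rose and genes that fell coloured and a dashed line at equality. All called genes lie in the upper right or lower left, and *Iglc1* and *Cd74* rose by more in mouse 10.

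Among the 763 genes that rose the median log2 fold change was 2.24 in mouse 10 and 2.10 in mouse 18. Among the 1620 that fell it was -2.31 and -2.37. These genes were called on the mean of the 2 mice, so likeness between the mice is partly built into the choice. *Sirt7* was lower in the Sirt7-/- libraries but not absent, with 363 and 366 normalized counts in pro-B and 1066 and 821 in pre-B cells. The 763 and 1620 genes were chosen by their wild-type fold change, and the Sirt7-/- libraries entered that choice through the estimate of the spread. In Sirt7-/- cells the medians were 2.06 and -1.71. Smaller medians can follow from such a choice alone, so nothing is read from their size. Of the 763, 722 were higher in both Sirt7-/- mice, and of the 1620, 1560 were lower. No such count was made over all genes tested. *Vpreb1* had a log2 fold change of -3.64 in Sirt7-/- cells against -5.73 in the wild type, and *Myc* one of -2.21 against -3.65. The 2 Sirt7-/- mice were unlike in such genes, with log2 fold changes of -4.62 and -2.67 for *Vpreb1*, and with 423 and 3838 normalized counts of *Dntt* and 43.7 and 323 of *Thy1* in their pre-B libraries. The difference itself, tested as the interaction of stage and genotype, passed for neither (limma adjusted p = 0.836 and 0.843), and over all genes it passed for 1 gene, which is 0.00598% of those tested, while 925 had an unadjusted p under 0.05. By edgeR it passed for 1 gene and by DESeq2 for 98, and with the replicate block in limma for 0. The gene that limma called, *Trim26*, a ubiquitin ligase of the TRIM family, was singled out after its values were seen. It had 4806 and 4751 normalized counts in wild-type pro-B and 3723 and 3531 in pre-B cells, and 1583 and 1561 and then 4677 and 4434 in Sirt7-/- cells, so that the stages moved in opposite directions. The stage change was higher by 1.93 in Sirt7-/- cells (SE 0.12, limma adjusted p = 0.016). That adjusted p was 0.212 with the replicate block and 0.0206 to 0.211 with 1 library left out, and it was above 0.05 without either pro-B library of the wild type, the pre-B library of mouse 10 or either Sirt7-/- pro-B library.

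Pax5 peaks stood at a smaller share of the genes that changed than of the rest. With peaks found in both replicates of the cultured cells, 7908 in all, 141 of 706 genes that rose (19.97%) and 215 of 1542 that fell (13.9%) had a peak within 1 kb of an annotated start, against 3647 of 13443 genes that did neither (27.1%). Among protein-coding genes averaging at least 100 normalized counts, a limit chosen after seeing the data, the shares were 28.6%, 20.1% and 35.8% in the same order. No test was made of these shares. Named genes with such a peak included *Rag1* (13.9-fold over input in replicate 1), *Cd72* (11.7-fold), *H2-DMb2* (11.8-fold), *Erg* (9.86-fold) and *Cd79b* (8.54-fold), all by replicate 1. Genes of both directions thus carried one. The peaks come from fetal liver cells in culture on another strain background, and binding in the sorted cells of adult bone marrow was not measured here.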

How the data were processed

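Bone marrow of 2 wild-type and 2 Sirt7-/- mice was sorted into pro-B and pre-B cells, and a stranded kit was used for RNA libraries read as 150-bp pairs. The authors quantified transcripts with Salmon on mm10 with GC-bias correction and selective alignment, summed them to genes through Tximeta and deposited counts divided by DESeq2 size factors (a normalized signal, given here as normalized counts). Versions were not given in the sources used here. For Pax5 the authors aligned with Bowtie2 to mm10, removed low-quality and duplicate reads, called MACS2 peaks on each replicate over input and deposited the fold enrichment as a ratio to input and the q-value as −log10.

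Dividing each column by its smallest step gave whole reads for 100% of values within 0.001, which served edgeR 4.0.16 and DESeq2 1.42.0 as alternatives. The main test was limma 3.58.1 in R 4.3.3 with a variance trend on log2(normalized count + 1) over all 8 libraries and 4 group means, without a block, with Benjamini-Hochberg adjustment over the 16710 genes. A gene was called when its adjusted p was under 0.05 and its log2 fold change at least 1.5 in size. A permutation of 2 against 2 libraries cannot give an exact two-sided p below 0.333. Both stages came from each mouse, so that replicates are animals and the mouse pairs them. The deviations of the 2 stages from their means had a Pearson r of 0.0797 in the wild type, over 12018 genes averaging at least 100 normalized counts, and of 0.21 in the Sirt7-/- mice. Gene rows with a repeated symbol (270) were kept apart.

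The comparison, its genes and the 28 lists were chosen with earlier results of these data known, so that counts over a list are descriptions. Genes to name were drawn from those the study names for these cells, up to 4 called members per list by fold change among those averaging at least 100 normalized counts, members of lists of at most 7 genes, and the 10 largest rises and falls among annotated genes with a higher group mean of at least 1000. Not all genes that met this rule are printed, and other list members are given as context. Of the list members, *Hrk*, *Gzmb*, *Klk1*, *Lepr*, *Pdgfra* and *Atf3* did not reach the limit of 10 and were not tested. Alternatives were other tests, scalings, pseudocounts, filters and fold thresholds, the replicate block, leaving out each library, and other peak distances and peak sets. Promoters came from RefSeq, and gene starts from GENCODE M21. A further marker of the sorting gates is not reported here.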

Additional observations from a re-analysis of the deposited data

Results flagged for a closer look

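The change of *Rag2* between the stages went opposite ways in the 2 genotypes. Its level was higher in pre-B cells of both wild-type mice and lower in those of both Sirt7-/- mice, which had 10073 and 10502 normalized counts in pro-B and 7301 and 9205 in pre-B cells. The difference of the log2 fold changes, Sirt7-/- minus wild type, was -0.466 (SE 0.33) and did not pass the interaction test (limma adjusted p = 0.948). For *Trim26* the same difference was 1.932 and passed, as given above, with all 4 mice in the direction of their genotype.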

How the results depend on the processing

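No called gene named here changed direction under any setting tried, and 11 of the called genes lost the call somewhere, each of them when 1 library was left out. Outside those fits the call was lost for *Iglc1* (with the replicate block, with the 4 wild-type libraries only and without the filter), *Runx2* (limma adjusted p = 0.064 without the filter) and *Fbl* (-1.499 after TMM rescaling). With the replicate block over all 8 libraries limma called 763 genes higher and 1675 lower, of which 725 and 1560 were among those of the fit without it, and *Ngp*, *Dusp1* and *Siglech* passed. The block over the 4 wild-type libraries gave 793 and 1752, and there *Ngp*, *Siglech* and *Ier3* passed. Apart from these genes and *Iglc1* the block changed no call of a named gene, the interaction of *Trim26* aside. By edgeR 736 genes were higher and 1527 lower, and by DESeq2 773 and 1622. A fold threshold of 1 gave 1385 genes higher and 2362 lower, and a filter at 100 normalized counts, which left 12308 genes to test, gave 538 and 1078. With 1 library left out the counts ranged from 584 to 766 higher and from 1219 to 1732 lower.

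The interaction of stage and genotype, with 1 gene in limma, gave 8 after TMM rescaling, 98 by DESeq2, 0 with the replicate block and 0 to 15 with 1 library left out. The settings for it were chosen after seeing the data, and the cause of these differences was not tested. Genes near no change turned sign. *Sirt4* had a log2 fold change of 0.00487 after TMM rescaling and of -0.20 to 0.15 with 1 library left out. Under the same omissions *Rag2* ran from -0.15 to 0.43, *Il7r* from -0.35 to 0.21, *Mef2c* from -0.10 to 0.0128, *Nr3c1* from -0.50 to 0.29 and *Plcg2* from -0.11 to 0.0232. *Fos* ran from -0.29 to 2.29, *Socs3* from -0.68 to 0.0653 and *Xbp1* from -0.55 to 0.18.

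The share of genes with a Pax5 peak, for genes that rose, fell or did neither, was 25.1%, 18.6% and 30.8% within 5 kb. It was 29.8%, 25.8% and 42.8% with peaks of either replicate, and 10.6%, 7.33% and 15.4% with a −log10 q of at least 10 in replicate 1. It was 25.9% for genes that did neither within 0.5 kb. Among protein-coding genes averaging at least 100 normalized counts it was 28.6%, 20.1% and 35.8%. The order of the classes was the same in each.

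With 2 mice per group, changes that differ between mice are poorly resolved. Medians of lists of low genes follow the pseudocount, as for T cell markers, at -5.50 with 0.5 and -1.99 with 10. The median of all genes moved from -0.022 to 0.009 with TMM rescaling.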

Other observations

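Immediate early genes, which respond within minutes to stimulation and handling, had 0 calls between the stages in the fit used throughout, and some differed between the mice. Of the 9 tested, 4 (*Zfp36*, *Junb*, *Egr1* and *Ier3*) were higher in both pre-B libraries than in both pro-B libraries of the wild type and 1 (*Dusp1*) lower, against 35.6% and 38.5% of all genes tested. *Fos* had 820 and 136 normalized counts in wild-type pro-B and 1639 and 273 in pre-B cells, so that mouse 10 was the higher at both stages. *Jun*, its partner in AP-1, had 5688 and 2146 and then 11749 and 5176. In the Sirt7-/- mice the spread was wider, with 1172 and 15802 for *Fos* in pro-B and 2568 and 16061 in pre-B cells. Of the 9 genes tested, 0 were called by limma, edgeR or DESeq2 and 1 had an unadjusted p under 0.05 in limma. Of all 16710 genes tested, limma called 14.3% in either direction, and 8506 had an unadjusted p under 0.05. *Ier3* rose without either Sirt7-/- pro-B library (limma adjusted p = 0.0145 and 0.0183). With the replicate block over all 8 libraries *Dusp1* fell (log2 fold change -1.54, limma adjusted p = 0.044). Summed, the list went from 31820 and 24241 to 71510 and 48634 in the wild type, with *Zfp36*, which encodes a protein that destabilizes such transcripts, the most abundant.

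Transcripts of ribosomal proteins, by symbols starting with Rpl or Rps, made up 3.42% and 3.51% of all normalized counts at the wild-type pro-B stage and 2.68% and 2.48% at the pre-B stage. Mitochondrial transcripts made up 7.35% and 6.55% and then 6.54% and 7.19%, with overlapping groups.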
